A study of Mus musculus with 6 samples.

Results

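The transcripts of Ash2l, Wdr5, Rbbp5 and Dpy30 were followed in 6 RNA-seq libraries. These 4 genes encode the WRAD core of the histone H3 lysine 4 methyltransferase complexes, and they were taken by gene symbol, 4 of the 17025 genes in the table. The cells were integrin α6-positive epidermal progenitor cells, sorted by flow cytometry from mouse skin on postnatal day 0. There were 3 libraries labelled cKO, from animals with K14Cre and both Ash2l alleles floxed (K14Cre,Ash2lF/F), and 3 labelled control, from animals with K14Cre and 1 floxed Ash2l allele (K14Cre,Ash2lF/+). All animals therefore carried the Cre recombinase, which the keratin 14 promoter drives in basal keratinocytes, and every control animal carried 1 allele that Cre can delete. The labels list no other treatment.

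The WRAD subunits are shared by the MLL/KMT2 and SET1 methyltransferase families. ASH2L and RBBP5 form a heterodimer that activates the catalytic SET domain, WDR5 is a WD-repeat scaffold that bridges it to the methyltransferase, and DPY30 is a small protein that binds ASH2L as a dimer. Methylation of histone H3 at lysine 4 marks active promoters and enhancers, and ASH2L is the subunit that was targeted in this study of epidermal differentiation and hair follicle formation.

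The libraries held 31578875 to 36027550 fragments. Levels are FPKM values, fragment numbers scaled by gene length and library size, and differences are cKO minus control on the log2(FPKM + 1) scale from limma with Benjamini-Hochberg adjustment over 11603 genes. A gene was called at an adjusted p under 0.05. Of all genes tested, 19.5% were called, 681 (5.87%) higher and 1576 (13.6%) lower in the cKO-labelled libraries. All genes together had a median difference of -0.17. Median-of-ratios scaling set that median to 0.01 and gave 998 genes higher and 1054 lower. Groups did not overlap in FPKM for 42.9% of the genes. A library is an average over many sorted cells, so fewer cells of a type and less RNA per cell cannot be told apart. All 8 basal keratinocyte markers were found, with summed levels of 8070 to 10500 FPKM in the cKO-labelled libraries and 5020 to 8700 FPKM in the control-labelled libraries, and 1 of the 8 was called higher and 2 lower. The sum of 7 suprabasal keratinocyte markers was 34600 to 67900 FPKM in the cKO-labelled libraries and 4500 to 6390 FPKM in the control-labelled libraries, with 4 of 7 called higher. The sum of 8 melanocyte markers was 178 to 394 FPKM against 2960 to 3370 FPKM, with all 8 called lower. Fibroblast markers overlapped between the groups, at 131 to 374 FPKM in the cKO-labelled libraries and 59.4 to 336 FPKM in the control-labelled libraries. Endothelial sums overlapped too, at 0.939 to 6.81 FPKM against 2.21 to 4.57 FPKM in the same order of groups. So did Merkel cell sums (9.16 to 10.5 against 8.95 to 20.1 FPKM) and erythrocyte sums (7.41 to 45.2 against 2.92 to 48.1 FPKM). No tested gene of these lists was called. The sum of 5 Schwann cell markers was 9.27 to 21.1 FPKM against 78.6 to 129 FPKM, with 1 of 4 tested called lower. That 1 was Sox10, which also belongs to the melanocyte list and is counted there. The sum of the 4 immune markers found was 4.98 to 7.13 FPKM against 7.80 to 14.0 FPKM, with 1 tested and none called, and Ptprc, Cd3e and Adgre1 listed at 0 in some libraries.

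The 4 core subunits did not move together. Ash2l was higher in cKO-labelled libraries and passed the test, Dpy30 lay higher and narrowly missed it, and Wdr5 and Rbbp5 lay lower and missed it. For none of the 4 did the groups overlap, where 42.9% of all tested genes had groups that did not overlap. With 1 of 4 called higher, set beside 5.87% of all genes called higher and 19.5% called in either direction, the count rests on a single gene.

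**Figure D1:**
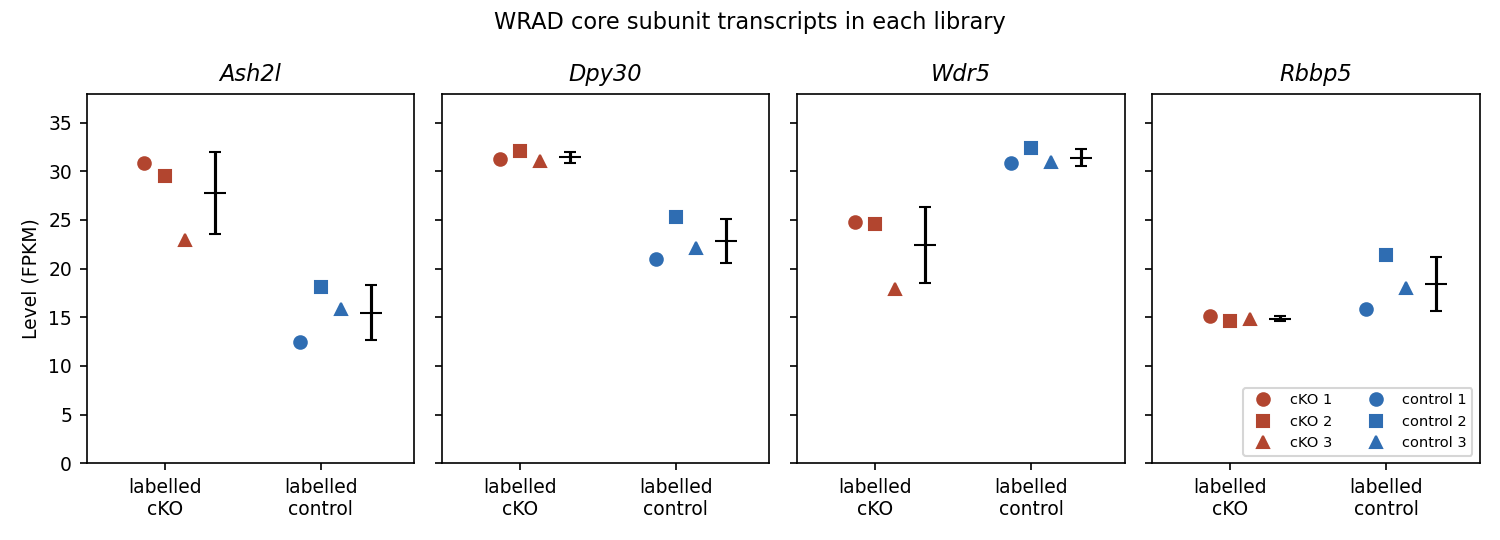
Levels of the 4 WRAD core subunit transcripts (FPKM, vertical axis from 0) in each library, labelled cKO in red and labelled control in blue; the symbol gives the replicate number and the black bar the mean with 1 SD (n = 3 each). Ash2l and Dpy30 lie higher in every library labelled cKO, with means of 27.8 and 31.5 FPKM, and Wdr5 and Rbbp5 lie lower, with means of 22.4 and 14.8 FPKM.

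Ash2l, the gene targeted by the floxed alleles, had 3657, 3533 and 2910 fragments in cKO-labelled libraries 1, 2 and 3, against 1382, 2102 and 1833 fragments in control-labelled libraries 1, 2 and 3. This is 30.9, 29.5 and 22.9 FPKM in the cKO-labelled libraries, against 12.4, 18.1 and 15.9 FPKM in the control-labelled libraries. The lowest library labelled cKO stood above the highest labelled control, although the cKO label names the animals with both Ash2l alleles floxed. The means were 27.8 ± 4.24 and 15.5 ± 2.84 FPKM (SD, n = 3 each), a ratio of 1.80 and a log2 difference of 0.81 (SE 0.19, 95% interval 0.37 to 1.25, limma adjusted p = 0.0240). For each of the 4 subunits an exact two-sided permutation over libraries returned p = 0.1, and no lower p is possible with 3 against 3. Counting error was small beside this gap: exact Poisson 95% intervals ran from 22.1 to 23.8 FPKM in cKO-labelled library 3 and from 17.3 to 18.9 FPKM in control-labelled library 2. These intervals cover counting error only.

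Ash2l ranked between place 2162 and place 2639 of all genes in the cKO-labelled libraries, and between place 4144 and place 5436 in the control-labelled libraries. Of all tested genes, 6.01% had a larger positive difference, and Ash2l lay 0.98 above the median of all genes. The call was lost when cKO-labelled library 1 (adjusted p = 0.0828), cKO 2 (0.0808), control 1 (0.0564) or control 3 (0.0670) was left out, with differences between 0.67 and 0.84. Because each gene has a single value, the level of Ash2l does not tell transcripts with a deleted exon from intact ones. Every direction below rests on the labels as given, under which the targeted gene was higher in the cKO-labelled libraries. Whether the labels are right was not tested.

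The 3 genes whose pattern over the 6 libraries was most like that of Ash2l, among 8208 genes compared by Pearson r, were Zfp282 (r = 0.988), Zfp772 (r = 0.987) and Sdc4 (r = 0.986). Zfp282 and Zfp772 encode zinc finger proteins, and Sdc4 encodes the cell surface proteoglycan syndecan 4. Zfp282 averaged 21.0 ± 3.49 FPKM in the cKO-labelled libraries and 10.8 ± 1.94 FPKM in the control-labelled libraries (SD, n = 3 each). Here and for the other subunits, such genes were picked by r over these same 6 libraries. Their group differences follow from that choice and are no separate evidence. The highest r among so many genes over 6 libraries can lie near 1 by selection alone. Among the WRAD subunits, Dpy30 followed the same order of groups as Ash2l and Wdr5 and Rbbp5 the opposite one. The neighbouring genes of Ash2l were near silent: Star was at 0.240 to 0.551 FPKM in the cKO-labelled libraries and 0.110 to 1.03 FPKM in the control-labelled libraries. Kcnu1, on the other side, was at 0.270 to 0.382 FPKM in the cKO-labelled libraries and 0.0442 to 0.544 FPKM in the control-labelled libraries. No annotated gene overlaps Ash2l, Wdr5, Rbbp5 or Dpy30 in the GRCm38.p6 annotation, another build than that of the deposited values.

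Dpy30, the small ASH2L-binding subunit, was the steadiest of the 4. It had 1164, 1211 and 1239 fragments in cKO-labelled libraries 1, 2 and 3, against 735, 928 and 805 fragments in control-labelled libraries 1, 2 and 3. The levels were 31.2, 32.1 and 31.0 FPKM in the cKO-labelled libraries, against 21.0, 25.3 and 22.2 FPKM in the control-labelled libraries. All libraries labelled cKO lay within about 1 FPKM of each other and above every library labelled control. The means were 31.5 ± 0.565 and 22.8 ± 2.24 FPKM (SD, n = 3 each), a log2 difference of 0.45 (SE 0.13, 95% interval 0.14 to 0.76, limma adjusted p = 0.0516). This missed the threshold on FPKM as deposited and passed it under median-of-ratios scaling (0.65, adjusted p = 0.0195), which places the median of all genes near 0. Only 5.40% of the tested genes had a smaller spread within groups than Dpy30 (pooled SD 0.0961 on the log2 scale, against a median of 0.263).

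The genes most like Dpy30 were Arhgef4 (r = 0.999), Micu2 (r = 0.997), a regulator of mitochondrial calcium uptake, and Dlg1 (r = 0.996), a scaffold of cell polarity. Arhgef4 averaged 10.5 ± 0.237 FPKM in the cKO-labelled libraries and 4.30 ± 1.39 FPKM in the control-labelled libraries (SD, n = 3 each). Because it was picked for its likeness to Dpy30 in these libraries, this difference is no separate evidence. Next to Dpy30 on chromosome 17, Memo1 was at 6.94 to 8.12 FPKM in the cKO-labelled libraries and 4.74 to 7.55 FPKM in the control-labelled libraries. Spast, on its other side, was at 16.2 to 17.7 FPKM and 12.4 to 13.9 FPKM, a log2 difference of 0.34 (SE 0.142, limma adjusted p = 0.133). Like Dpy30, Spast passed the test under median-of-ratios scaling (0.53, adjusted p = 0.0377).

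Wdr5, the scaffold subunit, had 2785, 2802 and 2159 fragments in cKO-labelled libraries 1, 2 and 3, against 3257, 3579 and 3399 fragments in control-labelled libraries 1, 2 and 3. The levels were 24.8, 24.6 and 17.9 FPKM in the cKO-labelled libraries, against 30.8, 32.4 and 31.0 FPKM in the control-labelled libraries. Every library labelled cKO lay below every library labelled control, and cKO-labelled library 3 was the lowest of the 6. The means were 22.4 ± 3.91 and 31.4 ± 0.847 FPKM (SD, n = 3 each), a log2 difference of -0.48 (SE 0.16, 95% interval -0.86 to -0.11, limma adjusted p = 0.0744). Under median-of-ratios scaling the difference was -0.29 (adjusted p = 0.183), and relative to the median of all genes it was -0.31. The difference passed the test with array weights (adjusted p = 0.0269) and on 4 libraries (cKO 1 and 2, control 2 and 3) (-0.35, adjusted p = 0.0395), a subset chosen after seeing the data.

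The 3 genes most like Wdr5 were Ndfip1 (r = 0.9996), Lbh (r = 0.9996) and Zeb2 (r = 0.999). Ndfip1 encodes an adaptor of ubiquitin ligases, and Lbh is a transcription cofactor gene. Zeb2 encodes a zinc finger repressor expressed in melanocytes among other cells. Zeb2 averaged 7.71 ± 3.76 FPKM in the cKO-labelled libraries and 19.3 ± 1.59 FPKM in the control-labelled libraries. The melanocyte marker sum given above moved between the groups in the same direction as Wdr5, and its part in the Wdr5 difference was not tested. The near-intronless paralogue Wdr5b was at 1.59 to 2.75 FPKM in the cKO-labelled libraries and 1.19 to 1.71 FPKM in the control-labelled libraries (log2 difference 0.43, SE 0.235, adjusted p = 0.236). Its groups overlapped, and its mean level was a small part of that of Wdr5, 2.21 against 22.4 FPKM in the cKO-labelled libraries and 1.37 against 31.4 FPKM in the control-labelled libraries. Brd3 and Rxra flank Wdr5 on chromosome 2. Brd3, a reader of acetylated histones, was at 13.4 to 16.7 FPKM in the cKO-labelled libraries and 14.7 to 17.8 FPKM in the control-labelled libraries. Rxra, the retinoid X receptor alpha gene, was higher in the cKO-labelled libraries, at 85.3 to 97.7 FPKM against 51.0 to 63.6 FPKM (0.67, SE 0.132, adjusted p = 0.0130, though 0.0545 without cKO-labelled library 2).

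Rbbp5, the partner of ASH2L in the heterodimer, had the lowest level of the 4 in the cKO-labelled libraries as deposited. Dividing the same fragments by the exon lengths of the GENCODE annotation, without a recount, put Ash2l lowest instead. Rbbp5 had 1767, 1725 and 1855 fragments in cKO-labelled libraries 1, 2 and 3, against 1741, 2459 and 2055 fragments in control-labelled libraries 1, 2 and 3. The levels were 15.1, 14.6 and 14.8 FPKM in the cKO-labelled libraries, against 15.9, 21.4 and 18.0 FPKM in the control-labelled libraries. The gap between the groups was narrow, and the exact Poisson interval of cKO-labelled library 1 (14.4 to 15.8 FPKM) met that of control-labelled library 1 (15.1 to 16.6 FPKM). The means were 14.8 ± 0.272 and 18.4 ± 2.79 FPKM (SD, n = 3 each), a log2 difference of -0.29 (SE 0.16, 95% interval -0.65 to 0.08, limma adjusted p = 0.239). Under median-of-ratios scaling the difference was -0.09 (adjusted p = 0.725), and relative to the median of all genes it was -0.12. It was -0.18 without control-labelled library 2, the highest of the 6.

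The genes most like Rbbp5 were Zfp180 (r = 0.996), Vapa (r = 0.990), an endoplasmic reticulum tethering protein gene, and Noc4l (r = 0.988), a ribosome biogenesis gene. None of these 3 was called (limma adjusted p = 0.170, 0.114 and 0.231, n = 3 each). Dstyk, the neighbour of Rbbp5 on chromosome 1 and a dual-specificity kinase gene, was lower in the cKO-labelled libraries, at 12.0 to 22.1 FPKM against 30.7 to 41.7 FPKM (-0.99, SE 0.239, adjusted p = 0.0265). That call was lost without control-labelled library 2 (adjusted p = 0.0955) or control 3 (0.0782), and with no filter on level (0.0539). Tmem81, on the other side, was at 4.35 to 6.37 FPKM and 3.69 to 6.74 FPKM.

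The order of the 4 levels differed between the groups and was the same in all 3 libraries of each. In the cKO-labelled libraries it ran Dpy30, Ash2l, Wdr5, Rbbp5 from high to low, and in the control-labelled libraries Wdr5, Dpy30, Rbbp5, Ash2l. Ash2l took 26.5 to 30.3% of the summed FPKM of the 4 genes in the cKO-labelled libraries and 15.5 to 18.6% in the control-labelled libraries. Wdr5 took 20.7 to 24.4% in the cKO-labelled libraries and 33.3 to 38.5% in the control-labelled libraries. The sum itself overlapped between the groups, at 86.7 to 102.0 FPKM in the cKO-labelled libraries and 80.1 to 97.2 FPKM in the control-labelled libraries. Within a group, Ash2l and Dpy30 were close in cKO-labelled libraries 1 and 2, where their Poisson intervals overlapped.

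The levels of different genes compare only as far as the gene lengths behind them hold. The lengths recovered from the deposited values were 3521 bases for Ash2l, 3344 for Wdr5, 3476 for Rbbp5 and 1108 for Dpy30. The joined exons of GENCODE M21 come to 8969, 3596, 3930 and 1146 bases. Dividing the same recovered fragments by those lengths put Ash2l lowest of the 4 in every library. It was then at 9.01 to 12.1 FPKM in the cKO-labelled libraries and 4.88 to 7.09 FPKM in the control-labelled libraries. Fragments were not recounted over the longer exons, so these values change the length only and are not levels under that annotation. Dpy30 remained above Wdr5 in the cKO-labelled libraries, at 30.0 to 31.0 against 16.7 to 23.0 FPKM, and below it in the control-labelled libraries, at 20.3 to 24.5 against 28.7 to 30.1 FPKM. The place of Ash2l in the order thus depends on the length used, and its place under a full recount was not tested. The exchange of Dpy30 and Wdr5 held with both sets of lengths.

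A ratio of 2 transcripts within a library does not depend on the scaling between libraries, and its change between groups does not depend on the gene lengths. Ash2l over Wdr5 was 1.25, 1.20 and 1.28 in cKO-labelled libraries 1, 2 and 3, against 0.403, 0.558 and 0.512 in control-labelled libraries 1, 2 and 3. With the lengths behind the deposited values, Ash2l thus exceeded Wdr5 in each library labelled cKO and lay below it in each labelled control. Dividing the same fragments by GENCODE lengths, without a recount, put Ash2l below Wdr5 in all 6. The means were 1.24 ± 0.0416 and 0.491 ± 0.0795 (SD, n = 3 each), a difference of 1.35 between the groups in the log2 ratio (exact permutation p = 0.1, two-sided, the smallest possible), or 1.29 with 1 FPKM added to each value, which brings back some dependence on scale.

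Ash2l over Rbbp5 was 2.04, 2.02 and 1.55 in cKO-labelled libraries 1, 2 and 3, against 0.784, 0.844 and 0.881 in control-labelled libraries 1, 2 and 3. The difference in the log2 ratio was 1.15 (exact permutation p = 0.1), or 1.10 with 1 FPKM added. Ash2l over Dpy30 was 0.989, 0.918 and 0.739 in the cKO-labelled libraries, against 0.592, 0.713 and 0.717 in the control-labelled libraries. The groups were nearly in contact, cKO-labelled library 3 lying just above control-labelled library 3, with a difference in the log2 ratio of 0.38 (exact permutation p = 0.1), or 0.36 with 1 FPKM added.

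Wdr5 over Dpy30 was 0.793, 0.767 and 0.577 in the cKO-labelled libraries, against 1.47, 1.28 and 1.40 in the control-labelled libraries. Rbbp5 over Dpy30 was 0.484, 0.454 and 0.477 in the cKO-labelled libraries, against 0.755, 0.845 and 0.814 in the control-labelled libraries. The groups were apart in both ratios. Wdr5 over Rbbp5 was 1.64, 1.69 and 1.21 in the cKO-labelled libraries, against 1.95, 1.51 and 1.72 in the control-labelled libraries, and was the only one of the 6 ratios whose groups overlapped (exact permutation p = 0.4, two-sided). So the pair Ash2l and Dpy30 was higher against the pair Wdr5 and Rbbp5 in every library labelled cKO than in any library labelled control. This had to follow from the single genes, whose groups already lay apart in opposite directions, and is no separate evidence. The share of other gene pairs with groups apart was not computed. None of the 6 ratios could pass a threshold of 0.05 with 3 against 3 libraries.

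**Figure D2:**
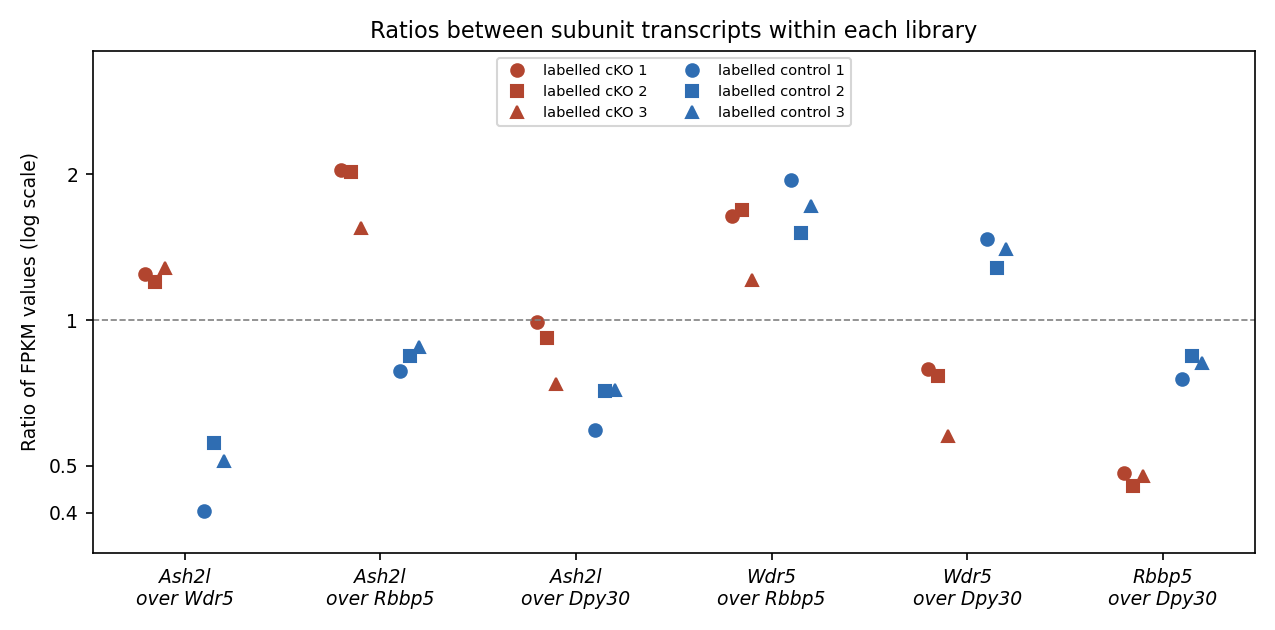
Ratios between the FPKM values of 2 WRAD subunit transcripts within each library (log scale; the dashed line is a ratio of 1), labelled cKO in red and labelled control in blue, with the symbol giving the replicate number. The groups are apart in 5 of the 6 ratios, with Ash2l over Wdr5 at 1.20 to 1.28 in the cKO-labelled libraries and 0.403 to 0.558 in the control-labelled libraries, and overlap for Wdr5 over Rbbp5.

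The promoters of Dpy30 and Wdr5 are shown because these genes exchanged places in the order of levels. The stretches come from RefSeq, build GRCm38.p6, with 3 of the 4 subunits matched in that table, and lie 5′ to 3′ before the gene's start and before every coding transcript start annotated there. Capitals mark a GC box. The motifs searched, on both strands and with no overlap found between them, were the GC box (letters GGGCGG), the CCAAT box (its 5 letters), the E-box (letters CACGTG), the ETS site (letters CCGGAA) and the TATA box (letters TATAAA).
Dpy30, chr17:74316464-74316683, minus strand: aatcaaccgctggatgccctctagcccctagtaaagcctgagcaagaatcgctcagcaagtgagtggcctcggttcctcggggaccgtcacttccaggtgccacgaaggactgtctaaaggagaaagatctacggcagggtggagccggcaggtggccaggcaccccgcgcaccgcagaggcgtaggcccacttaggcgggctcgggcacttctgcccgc
Wdr5, chr2:27514897-27515146, plus strand: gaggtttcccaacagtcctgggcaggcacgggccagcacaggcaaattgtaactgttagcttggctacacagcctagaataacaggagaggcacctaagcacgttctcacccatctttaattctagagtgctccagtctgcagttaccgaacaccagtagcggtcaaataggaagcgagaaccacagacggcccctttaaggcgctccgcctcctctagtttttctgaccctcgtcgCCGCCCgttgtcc
The stretch of Dpy30 was 63.2% G and C with 15 CpG dinucleotides, against medians of 51.8% and 5 over 32851 windows of that length. It comes from 1 of 4 RefSeq windows listed for Dpy30, and the other windows were not searched. The stretch of Wdr5 was 54.4% G and C with 12 CpG dinucleotides, against medians of 52.4% and 6. The stretch of Wdr5 held 1 GC box, on the reverse strand, a motif found in 32.7% of windows of that length. It held no CCAAT box, found in 33.8% of windows, no E-box (6.02%), no ETS site (12.0%) and no TATA box (12.4%). The stretch of Dpy30 held none of the 5, which were found in 28.5% (GC box), 31.0% (CCAAT box), 5.01% (E-box), 9.47% (ETS site) and 9.95% (TATA box) of windows of its length. The stretch of Rbbp5 was poorer in G and C, at 39.5% with 10 CpG dinucleotides, against medians of 52.4% and 6. It held none of the 5 motifs either. They were found in 32.5% (GC box), 33.7% (CCAAT box), 5.97% (E-box), 11.9% (ETS site) and 12.3% (TATA box) of windows of its length.

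WRAD joins 6 catalytic subunits, and all 6 genes had differences below 0 on FPKM as deposited, although that of Setd1b turned above 0 under median-of-ratios scaling. Kmt2a, which encodes MLL1, had 6.13, 6.49 and 5.90 FPKM in cKO-labelled libraries 1, 2 and 3, against 11.8, 11.3 and 10.9 FPKM in the control-labelled libraries. It was the only catalytic gene called (log2 difference -0.78, SE 0.156, limma adjusted p = 0.0135). The call was lost without cKO-labelled library 1 (adjusted p = 0.0543) or control 2 (0.0556), and with replicate number fitted as a block (0.0599). The others were Kmt2b at -0.29 (SE 0.27), Kmt2c at -0.31 (SE 0.191), Kmt2d at -0.23 (SE 0.196), Setd1a at -0.44 (SE 0.24) and Setd1b at -0.07 (SE 0.206), and 7417 of all 11603 genes also lay below 0. Single libraries moved these values: without cKO-labelled library 3, Kmt2b was at -0.035, Kmt2c at -0.17, Kmt2d at -0.12 and Setd1a at -0.20. Without control-labelled library 1, Kmt2b was at -0.51, Kmt2c at -0.20 and Kmt2d at -0.38, and without control-labelled library 2, Kmt2b was at -0.15 and Kmt2d at -0.10. Without cKO-labelled library 1, Kmt2b was at -0.45. Setd1b was at 0.11 under median-of-ratios scaling and at 0.10 without control-labelled library 3.

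Of the 12 partners that distinguish one complex from another, 2 were called lower and none higher by limma. Cxxc1, the CpG-binding subunit of the SET1 complexes, averaged 37.4 ± 5.53 FPKM in the cKO-labelled libraries and 64.0 ± 4.05 FPKM in the control-labelled libraries (-0.77, SE 0.147, adjusted p = 0.0118, though 0.0501 without control-labelled library 2). Psip1, which tethers the MLL1 complex to chromatin, averaged 12.9 ± 1.96 and 22.6 ± 2.10 FPKM (-0.77, SE 0.168, adjusted p = 0.0188). Its call was lost without cKO-labelled library 1 (adjusted p = 0.0506), control 1 (0.0505) or control 3 (0.0710), and with the replicate block (0.0641). Over catalytic subunits and partners together, 3 of 18 were called lower, set beside 13.6% of all genes, and the median was -0.34 beside -0.17 for all genes tested. The 3 became 1 without cKO-labelled library 1 or control 2. At an unadjusted p under 0.05, 6 were lower and 0 higher, where 24.6% of all genes were lower and 10.1% higher. By limma-voom on recovered fragments 3 were called lower and 0 higher, where 8.79% of all genes were lower and 8.14% higher. Ash2l and Dpy30, at 0.81 and 0.45, lay above all 18 of these genes, whose highest value was 0.12. Most other genes lay below them too: 94.0% of all tested genes were below Ash2l and 87.3% below Dpy30.

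**Figure D3:**
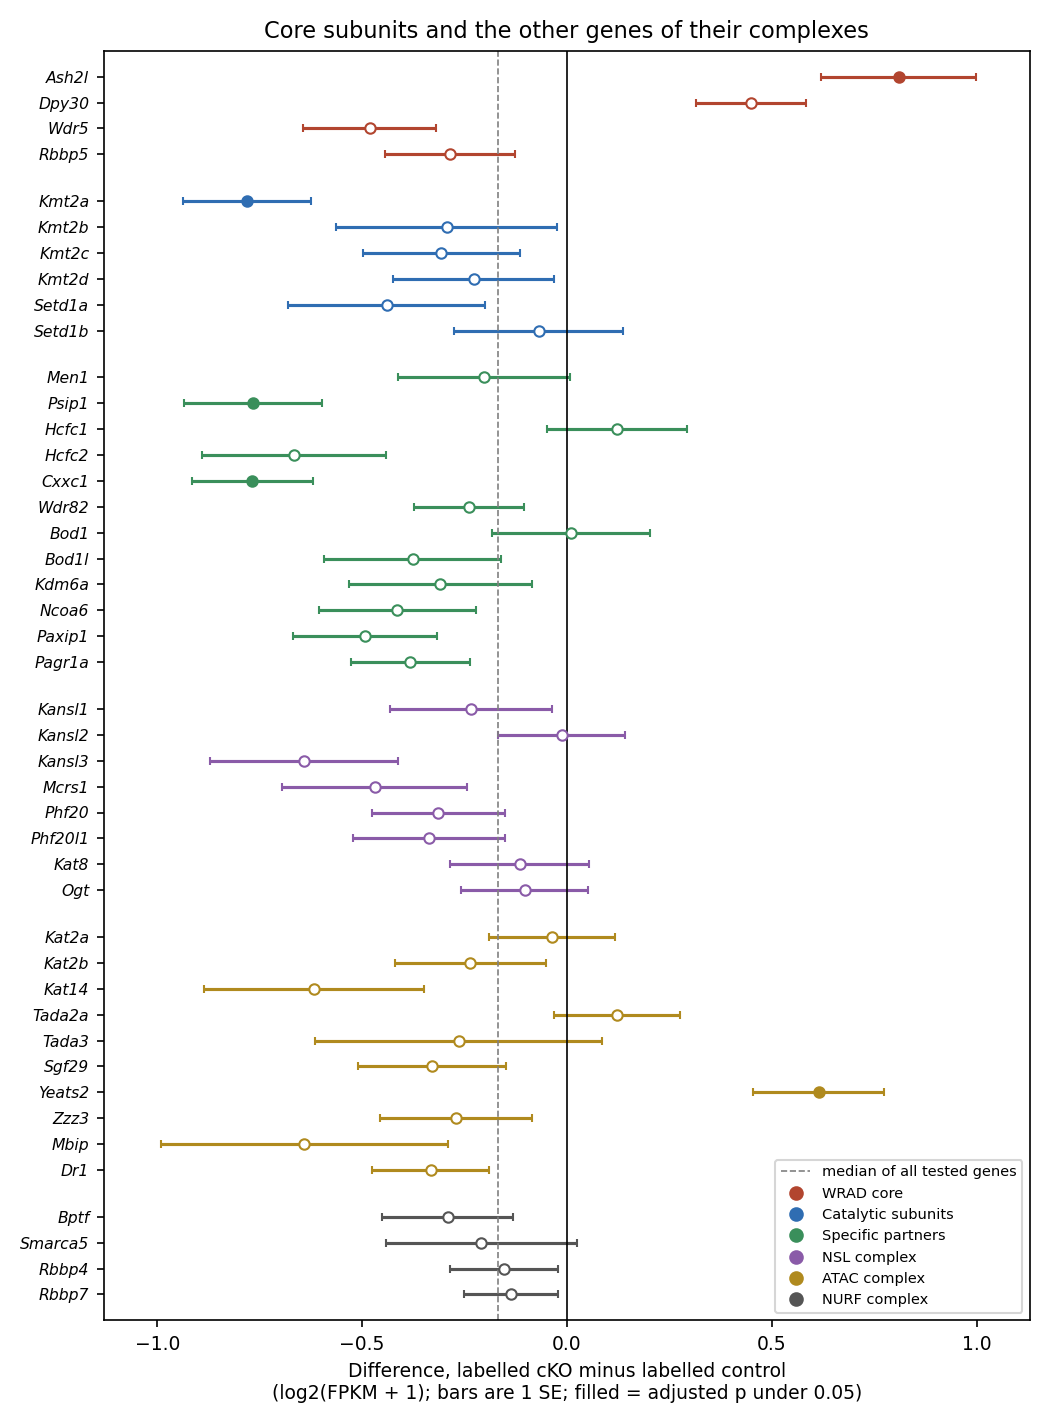
Differences between the cKO-labelled libraries and the control-labelled libraries (log2(FPKM + 1), horizontal axis; bars are 1 SE) for the WRAD core, the catalytic subunits, their specific partners and the tested genes of 3 other complexes that hold a core subunit. Filled points passed an adjusted p of 0.05, and the dashed line is the median of all tested genes at -0.17; Ash2l stands highest at 0.81 and Kmt2a lowest at -0.78.

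WDR5 and DPY30 also serve other chromatin complexes, whose counts stand beside 5.87% of all genes called higher, 13.6% called lower and a median of -0.17. Of 8 genes of the NSL complex, an acetyltransferase assembly that holds WDR5, limma called none, with 1 lower and 0 higher at an unadjusted p under 0.05 and none by limma-voom, and a median of -0.27. Of 10 genes of the ATAC complex, a histone acetyltransferase assembly with WDR5, Yeats2 was called higher and none lower, and the median was -0.27. Yeats2, a histone reader, averaged 12.3 ± 0.351 FPKM in the cKO-labelled libraries and 7.73 ± 0.874 FPKM in the control-labelled libraries (0.61, SE 0.16, adjusted p = 0.0346). The call of Yeats2 was lost without cKO-labelled library 1, cKO 2, control 2 or control 3 (adjusted p = 0.107, 0.120, 0.0966 and 0.109). It was also lost with the replicate block (adjusted p = 0.106). Of 5 genes of the NURF remodelling complex, which can hold DPY30, 4 were tested and none was called by limma or limma-voom, with none at an unadjusted p under 0.05 and a median of -0.18. Wdr5 at -0.48 lay within the range of the NSL genes (-0.64 to -0.01), and Dpy30 at 0.45 above that of the NURF genes (-0.29 to -0.14). Dydc1 and Dydc2, which share the DPY30 motif, were not found by symbol among the genes with deposited values and so were not analysed.

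The directions of the 4 subunits held in all 21 alternative settings, and their calls did not. Because no subunit had overlapping groups, only the scalings and the limma-voom fits could have reversed a direction. In the other settings the direction was fixed in advance. Ash2l was called in 16 of them, with values from 0.67 to 1.06, and Dpy30 in 9, with values from 0.39 to 0.68. Wdr5 was called in 2, with values from -0.56 to -0.29, and Rbbp5 in 1, with values from -0.38 to -0.09. Scaling by the median of ratios raised Ash2l to 1.00 (adjusted p = 0.00759) and brought Wdr5 and Rbbp5 nearer to 0.

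**Figure D4:**
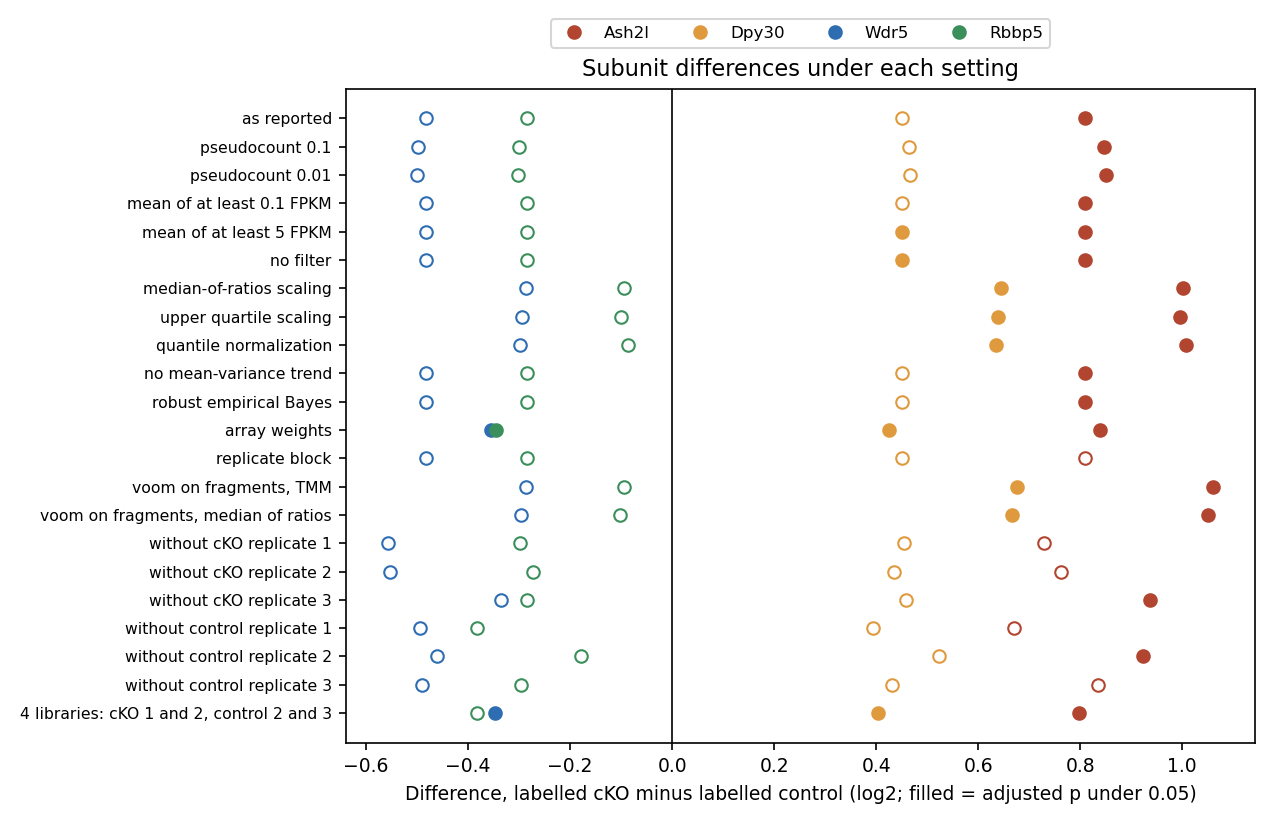
Difference of each WRAD subunit (log2, labelled cKO minus labelled control, horizontal axis) as reported and under 21 alternative settings (rows); filled points passed an adjusted p of 0.05. Ash2l runs from 0.67 to 1.06 and Dpy30 from 0.39 to 0.68, always above 0, while Wdr5 and Rbbp5 stay below 0.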

How the data were processed

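RNA from sorted integrin α6-positive epidermal cells of newborn mice was sequenced in 6 libraries. The authors deposited 1 table of FPKM values for 17025 genes. The tools fastp, HISAT2 and HTSeq and build GRCm39 are named in the submitters' processing notes, their versions, annotation and strand setting being not given in the sources used here. Groups and replicate numbers follow the labels. Nothing states that libraries came from separate animals, so p-values reflect only how far these libraries scatter, which may be technical.

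Whole fragments (tolerance 1e-09) were recovered for 17025 genes from the steps of the deposited values, with a length per gene and a total per library, and account for 99.5 to 99.6% of the totals. Lengths are the smallest that serve. The 11603 genes that averaged 1 FPKM or more were fitted by limma 3.58.1 (R 4.3.3) on the log2(FPKM + 1) scale, group being the sole term, with a mean-variance trend; the pseudocount of 1 understates changes of low genes. The test was checked on simulated data. Ratios were compared by exact permutation over libraries, two-sided. Alternatives covered pseudocounts, filters, scalings, variance models, a replicate block, each library left out, and limma-voom on recovered fragments; a fit on 4 libraries was added after seeing the data. The members and lists were chosen with earlier results of these data known. Named genes are the 4 members, the complex lists, flanking coding genes, Wdr5b and the 3 genes with the highest Pearson r to each member among those with a mean of at least 5 FPKM, without predicted genes, Rik genes, pseudogenes, mitochondrial or haemoglobin genes. Sequences and neighbours come from a RefSeq table of GRCm38.p6, another build than that of the values; 16932 genes matched it by identifier. Figures were drawn with matplotlib 3.10.9.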

Additional observations from a re-analysis of the deposited data

How the results depend on the processing

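The differences of Ash2l, Wdr5, Rbbp5 and Dpy30 and the 3 ratios to Ash2l kept their direction in every setting run. For the subunits, only the scalings and the limma-voom fits could have reversed it, since no groups overlapped. The groups of the 3 ratios were apart too, so leaving out a library or fitting the block could not reverse them. Ash2l lost its call under the replicate block (0.81, adjusted p = 0.0613). Deviations of same-numbered libraries from their group means correlated at -0.307, 0.0798 and -0.261. With 3 libraries a group such values are tied to each other, and they cannot show whether the replicate numbers stand for pairs. The block gave 432 genes higher, 893 lower and 1 methyltransferase or partner gene lower, and left the ratio differences at 1.29 (Ash2l over Wdr5), 1.10 (over Rbbp5) and 0.36 (over Dpy30), each with exact sign-flip permutation p = 0.25, the smallest 3 pairs allow. Dpy30 was called with genes of at least 5 FPKM or no filter (0.45 each), under median-of-ratios (0.65), upper quartile (0.64) and quantile (0.63) scaling, with array weights (0.43), and by limma-voom with TMM (0.68) or median-of-ratios (0.67) scaling. Array weights also called Wdr5 (-0.35) and Rbbp5 (-0.35), with 1423 genes higher, 2831 lower and 6 of the partner list lower. On the 4 libraries Wdr5 (-0.35) and Dpy30 (0.40) were called, with 1172 higher, 2400 lower and 5 of the list lower. Genes lower numbered 1050 with upper quartile scaling, 1020 and 1034 by limma-voom with TMM and median of ratios, and genes higher 1028 with quantile normalization. Leaving out 1 library gave Ash2l 0.67 to 0.94, Wdr5 -0.56 to -0.33, Rbbp5 -0.38 to -0.18 and Dpy30 0.39 to 0.52. It gave 393 to 713 genes higher, 710 to 1453 lower and 1 to 4 of the list lower.

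Among named genes near 0, Setd1b was 0.11 under median-of-ratios and 0.11 under upper quartile scaling, 0.12 under quantile normalization, 0.14 and 0.13 by limma-voom (TMM, median of ratios) and, with 1 library left out, -0.23 to 0.10 (above 0 without control 3). Brd3 was 0.11, 0.10 and 0.13 under the same scalings, 0.038 with array weights, 0.13 and 0.12 by limma-voom, 0.072 on the 4 libraries and, with 1 library left out, -0.15 to 0.0072 (above 0 without cKO 3). Memo1 ran, with 1 library left out, from -0.0082 (without control 1) to 0.28, and was 0.42 by limma-voom with TMM scaling. The cause was not tested for any of these changes. With 3 libraries a group the spread between libraries limits these tests, and every member had at least 735 fragments in each library.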
